A study of Mus musculus with 20 samples.

Results

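The dual-specificity MAP kinase phosphatases described here were 10 genes, Dusp1, Dusp2, Dusp4, Dusp5, Dusp6, Dusp7, Dusp8, Dusp10, Dusp14 and Dusp16, taken by their symbols as 10 of the 21963 entries of the count table. Each symbol had 1 entry. RNA was sequenced from bone marrow-derived macrophages (BMDMs), cells grown from the marrow of mice of 15 to 25 weeks, in 20 libraries of 5 groups. The groups were WT untreated (4 libraries), WT with zymosan for 3 h (5), WT loaded with 10 µM BAPTA-AM and given zymosan for 3 h (4), Mcu-/- untreated (4) and Mcu-/- with zymosan for 3 h (3). Zymosan, a yeast cell wall preparation that is taken up by macrophages, was given at 2 particles per cell, and BAPTA-AM is a chelator of Ca2+ that crosses the membrane. Mcu encodes the pore of the mitochondrial Ca2+ uniporter. The study's results on cytosolic Ca2+ signals name mice with a floxed Mcu and a Cre driven by Cx3cr1 as the source of its Mcu-/- macrophages. In such mice the deletion is made in cells that have used that promoter. BAPTA-AM without zymosan, or in Mcu-/- macrophages, was not analysed here. The labels call the libraries biological replicates and do not say whether each came from a separate mouse, so p-values measure the spread between these libraries.

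MAP kinases (ERK, JNK and p38) are switched on by phosphorylation of a threonine and a tyrosine in their activation loop, and the dual-specificity phosphatases remove both phosphates. Several of them are transcribed in answer to the kinases they switch off, and so act as feedback. The members fall into the inducible nuclear enzymes Dusp1, Dusp2, Dusp4 and Dusp5, of which Dusp1 acts mostly on p38 and JNK and Dusp5 on ERK, the cytoplasmic ERK phosphatases Dusp6 and Dusp7, the JNK and p38 phosphatases Dusp8, Dusp10 and Dusp16, and Dusp14, a small atypical member without the kinase-binding domain. In macrophages Dusp1 is known as a brake on p38 and cytokine output after microbial stimuli.

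Total counts were 14.4 to 24.0 M per library. Normalized counts below are CPM, a gene's counts per M counts of the TMM-scaled library, times the mean library size of 20.6 M, and a gene was called higher or lower where the Benjamini-Hochberg adjusted p of edgeR's quasi-likelihood fit of all 20 libraries was under 0.05. Mcu was lower in every Mcu-/- library (54.2 to 83.4 normalized counts in 7) than in every WT library (126 to 197 in 13), and was not at 0 in any. Untreated Mcu-/- replicate 4 stood apart from its group. The mean chi-square per gene was 217 to 225 in its 3 pairs with replicates 1 to 3, against 1.60 to 6.53 in the other 28 replicate pairs, and leaving it out lowered the common biological coefficient of variation from 12.4% to 3.56%. Since all groups share 1 estimate of spread, each result is given with and without that library where its call differed. The 8 macrophage markers were all detected, with a summed level of 13350 to 13740 CPM in WT untreated, 16080 to 16390 in WT zymosan, 14320 to 14560 in BAPTA-AM loaded and 10410 to 10760 in Mcu-/- zymosan libraries. In untreated Mcu-/- libraries the sum ran from 8554 in replicate 4 to 14770. The summed T cell, NK cell, neutrophil and dendritic cell markers were at most 3.65, 0.551, 5.41 and 11.9 CPM in any library. In bulk RNA, fewer cells of a type and less RNA per cell cannot be told apart.

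All 10 genes are protein coding. In mm10 they lie on chromosomes 17 (Dusp1, 26505590 to 26562128, minus strand), 2 (Dusp2, 127336159 to 127338376, plus), 8 (Dusp4, 34807297 to 34819894, plus), 19 (Dusp5, 53529109 to 53542431, plus), 10 (Dusp6, 99263231 to 99267489, plus) and 9 (Dusp7, 106368632 to 106375724, plus). The others lie on chromosomes 7 (Dusp8, 142079490 to 142095843, minus), 1 (Dusp10, 184013302 to 184075636, plus), 6 (Dusp16, 134715468 to 134792625, minus) and 11 (Dusp14, 84048041 to 84069261, minus). Genes on the opposite strand overlap the annotated spans of Dusp1 (Ergic1 and the pseudogene Gm8225), Dusp5, Dusp8, Dusp10 (1700056E22Rik, protein coding) and Dusp16. The strand setting of the counting was not given in the sources used here, so reads from these pairs cannot be told apart where their exons overlap. On its own strand, Dusp1 is overlapped by AC122252.4, a processed pseudogene, and AC122252.1, a sense intronic gene, which no strand setting would separate. The sequence before the start of 5 members follows, because these members had the largest zymosan responses in WT apart from Dusp14, whose counts were low. It was read from the RefSeq promoter table (GRCm38.p6), which held 9 of the 10 members and not Dusp4. Each is printed 5′ to 3′ on the gene's strand and ends at the RefSeq start, or, for Dusp1 and Dusp5, 47 and 36 bases before it, where an exon of the GENCODE annotation begins. Capitals mark matches to the searched motifs, of which Dusp2, Dusp6 and Dusp16 had none.
Dusp1 (chr17:26508520-26508722, minus strand): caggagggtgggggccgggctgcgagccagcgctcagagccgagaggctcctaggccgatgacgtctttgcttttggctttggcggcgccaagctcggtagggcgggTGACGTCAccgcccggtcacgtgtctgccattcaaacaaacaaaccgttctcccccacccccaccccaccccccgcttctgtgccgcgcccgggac
Dusp2 (chr2:127335909-127336158, plus strand): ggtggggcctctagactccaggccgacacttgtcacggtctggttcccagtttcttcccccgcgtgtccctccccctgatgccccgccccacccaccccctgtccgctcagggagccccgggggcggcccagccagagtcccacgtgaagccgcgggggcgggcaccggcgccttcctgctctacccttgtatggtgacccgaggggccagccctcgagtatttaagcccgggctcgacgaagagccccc
Dusp5 (chr19:53528895-53529108, plus strand): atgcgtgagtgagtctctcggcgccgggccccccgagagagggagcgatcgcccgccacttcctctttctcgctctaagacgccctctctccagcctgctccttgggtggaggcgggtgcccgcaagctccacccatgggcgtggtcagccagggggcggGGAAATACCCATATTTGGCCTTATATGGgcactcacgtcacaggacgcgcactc
Dusp6 (chr10:99262981-99263230, plus strand): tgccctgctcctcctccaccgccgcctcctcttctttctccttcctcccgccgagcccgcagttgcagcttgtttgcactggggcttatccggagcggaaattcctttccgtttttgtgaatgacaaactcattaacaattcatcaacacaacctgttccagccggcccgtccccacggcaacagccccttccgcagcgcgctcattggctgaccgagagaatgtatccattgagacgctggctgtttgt
Dusp16 (chr6:134792629-134792878, minus strand): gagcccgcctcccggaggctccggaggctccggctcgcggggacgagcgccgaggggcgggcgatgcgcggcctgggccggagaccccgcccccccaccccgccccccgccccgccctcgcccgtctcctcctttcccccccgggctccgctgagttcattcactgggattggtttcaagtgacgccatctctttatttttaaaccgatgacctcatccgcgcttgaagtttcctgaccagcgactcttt

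The motifs searched on both strands in the 250 bases before the start were the cyclic AMP response element TGACGTCA, the AP-1 sites TGACTCA and TGAGTCA, an NF-kB consensus, the ETS site CCGGAAGT and the CArG box of serum response factor. Dusp1 held TGACGTCA 143 bases before its start, and Dusp8 held it at 107 and 63 bases. Of 32851 promoter windows of that length, 1.55% held it. Dusp5 held CArG boxes starting 82 and 72 bases before its start (1.47% of windows held one), the first of which shared 2 bases with an NF-kB match (GGAAATACCC on the printed strand) starting at 90 bases (1.41% of windows). AP-1 sites were in 4.46% and the ETS site in 2.88% of all windows and in none of the 9 members' windows. These are matches of letters in short windows, with no measurement of binding.

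Untreated WT macrophages and zymosan-stimulated ones differed in which members were most abundant. Per length of exon, Dusp6 (24.4 ± 1.63 CPM per kb, SD, n = 4) and Dusp7 (19.9 ± 0.605) made up 42.0% and 34.3% of the family's summed level in untreated WT libraries, followed by Dusp1 (5.40 ± 0.522). With zymosan, Dusp2 (134 ± 5.30 CPM per kb, n = 5) and Dusp1 (104 ± 11.1) held 48.6% and 37.7% of it, Dusp16 was next at 19.3 ± 0.555, and Dusp6 and Dusp7 held 1.27% and 2.17%. The summed level of the 10 members was 58.0 ± 2.50 CPM per kb (SD) in WT untreated, 277 ± 13.8 in WT zymosan, 240.3 ± 7.52 in BAPTA-AM loaded, 68.5 ± 19.3 in Mcu-/- untreated and 251 ± 7.06 in Mcu-/- zymosan libraries. In untreated Mcu-/- macrophages it was 57.1 to 61.8 in replicates 1 to 3 and 97.4 in replicate 4. In Mcu-/- macrophages with zymosan, Dusp5 (11.7 ± 1.03 CPM per kb, n = 3), Dusp16 (9.58 ± 0.393) and Dusp4 (9.22 ± 0.500) lay close together, while in WT with zymosan Dusp5 (5.95 ± 0.511) and Dusp4 (1.91 ± 0.250) lay well below Dusp16. The order of Dusp5 and Dusp16 in Mcu-/- turned with the length used, since by the longest transcript Dusp16 had 14.6 CPM per kb and Dusp5 11.7. Dusp8, Dusp10 and Dusp14 stayed under 1 CPM per kb of union exon length in the mean of every group, and by the longest transcript Dusp14 reached 1.07 in Mcu-/- with zymosan.

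**Figure D1:**
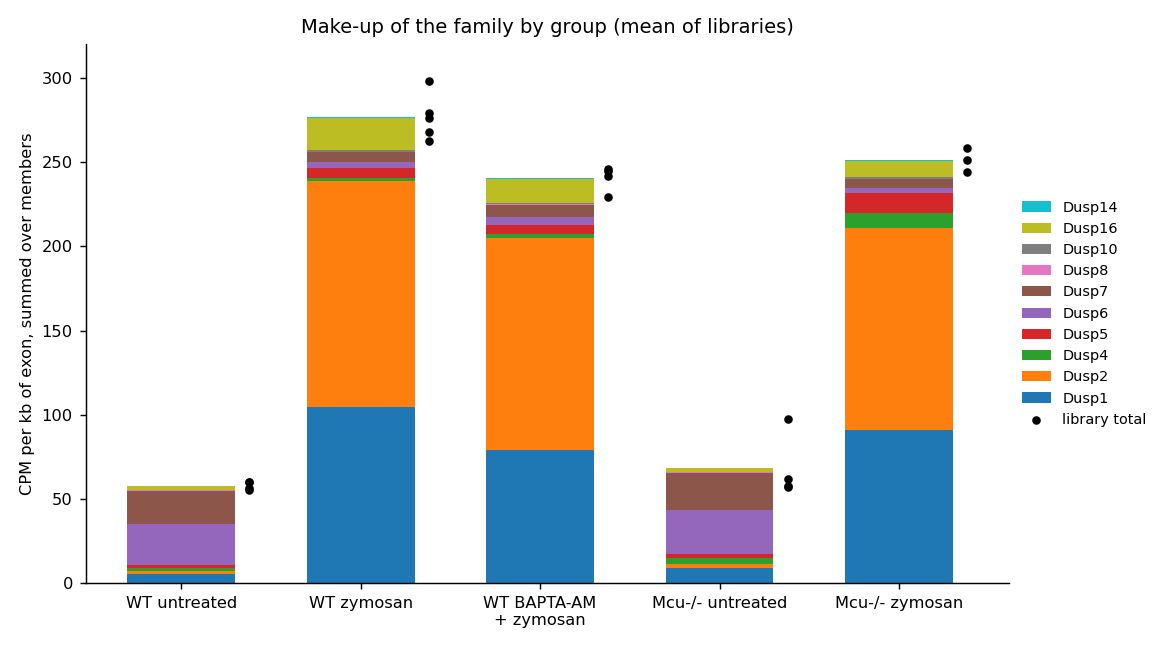
Stacked bars show the mean level of each of the 10 members in CPM per kb of exon, by group, and black points the summed level in each library. The untreated bars are mostly Dusp6 and Dusp7, the zymosan bars mostly Dusp2 and Dusp1, and 1 untreated Mcu-/- library (replicate 4, 97.4) lies above the other untreated libraries.

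In WT macrophages zymosan moved the members in both directions. Of 10 members tested, 8 were called (69.1% of the genes tested), 6 of them higher (32.4% of 11707 genes) and 2 lower (36.8% of genes), and the 2 groups did not overlap for 7 members (69.5% of genes). The members' median log2 change was 1.25, against -0.04 over all genes. Of the inducible nuclear members 3 of 4 rose, both cytoplasmic ERK phosphatases fell, and among the JNK and p38 phosphatases Dusp16 and Dusp10 rose.

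Dusp2, a nuclear phosphatase of activated leukocytes, had 84.4, 98.8, 99.7 and 76.3 normalized counts in the WT untreated libraries and 5286, 5376, 5835, 5653 and 5554 with zymosan. Its rise of 61.3-fold was larger than that of any other member, a log2 change of 5.94 ± 0.09 (SE, adjusted p = 4.78e-20 by edgeR). Dusp1, also called Mkp1, had 338, 419, 349 and 369 untreated and 6875, 7559.8, 8059, 6046 and 7102 with zymosan. That is 19.3-fold, a log2 change of 4.27 ± 0.35 (SE, adjusted p = 2.42e-09 by edgeR), and the groups lie far apart. Dusp5, which acts on ERK in the nucleus, rose from 72.1, 101, 82.1 and 63.6 to 333, 314, 308, 298 and 263, a log2 change of 1.92 ± 0.29 (SE, adjusted p = 7.79e-06 by edgeR). Its lowest zymosan library was above its highest untreated one. Dusp4, the fourth of these enzymes, had 101, 101, 82.1 and 69.4 untreated and 104, 111, 129, 90.3 and 105 with zymosan. The ranges overlapped, with a log2 change of 0.29 ± 0.48 (SE, adjusted p = 0.61 by edgeR). Without untreated Mcu-/- replicate 4, Dusp4 was called, at 0.28 ± 0.11 (SE, adjusted p = 0.0261 by edgeR), and then 9 of 10 members were called (78.5% of genes).

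The cytoplasmic ERK phosphatases fell. Dusp6, also called Mkp3, had 1452, 1547, 1707 and 1584 normalized counts untreated and 239.5, 216, 225, 202 and 249 with zymosan, 6.95-fold lower, with a log2 change of -2.80 ± 0.07 (SE, adjusted p = 1.32e-17 by edgeR). Dusp7, its close relative, had 1377, 1429, 1370.3 and 1327 untreated and 465, 397, 401, 399.6 and 413 with zymosan, 3.32-fold lower, with a log2 change of -1.73 ± 0.07 (SE, adjusted p = 1.29e-13 by edgeR). For both, every zymosan library was below every untreated one. Across all 20 libraries, Dusp7 was also the gene whose pattern was most like that of Dusp6.

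Dusp16, a JNK and p38 phosphatase also called Mkp7, had 347, 385, 399.7 and 339 normalized counts untreated and 2993, 3120.3, 3235, 3097 and 3058 with zymosan. Its groups did not overlap, and the log2 change was 3.07 ± 0.06 (SE, adjusted p = 2.29e-18 by edgeR), or 8.42-fold. The other members of its class were low. Dusp10 had 22.0, 28.0, 33.5 and 30.1 untreated and 41.1, 56.5, 31.5, 32.7 and 49.1 with zymosan, with overlapping ranges and a log2 change of 0.57 ± 0.20 (SE, adjusted p = 0.0166 by edgeR). This call was lost without WT untreated replicate 1 (0.46, edgeR adjusted p = 0.0644), without WT zymosan replicate 2 (0.44, edgeR adjusted p = 0.059) and with library totals in place of TMM (0.08, edgeR adjusted p = 0.703). Dusp8 had 22.8, 28.0, 25.6 and 20.8 untreated and 22.3, 13.9, 34.7, 33.9 and 24.0 with zymosan, a log2 change of 0.08 ± 0.29 (SE, adjusted p = 0.827 by edgeR). Its zymosan libraries spread on both sides of the untreated ones, and the sign turned without WT zymosan replicate 3 (-0.06) or replicate 4 (-0.04). Dusp14 had 0, 1.75, 2.65 and 6.94 untreated and 25.8, 14.9, 14.7, 18.1 and 22.9 with zymosan, on 11 counts in the 4 untreated and 86 in the 5 zymosan libraries. The ratio of summed counts per library size was 7.43 (95% exact counting interval 3.95 to 15.4, which covers counting error only), and the groups did not overlap (log2 change 2.82 ± 0.48, SE, adjusted p = 3.37e-05 by edgeR).

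**Figure D2:**
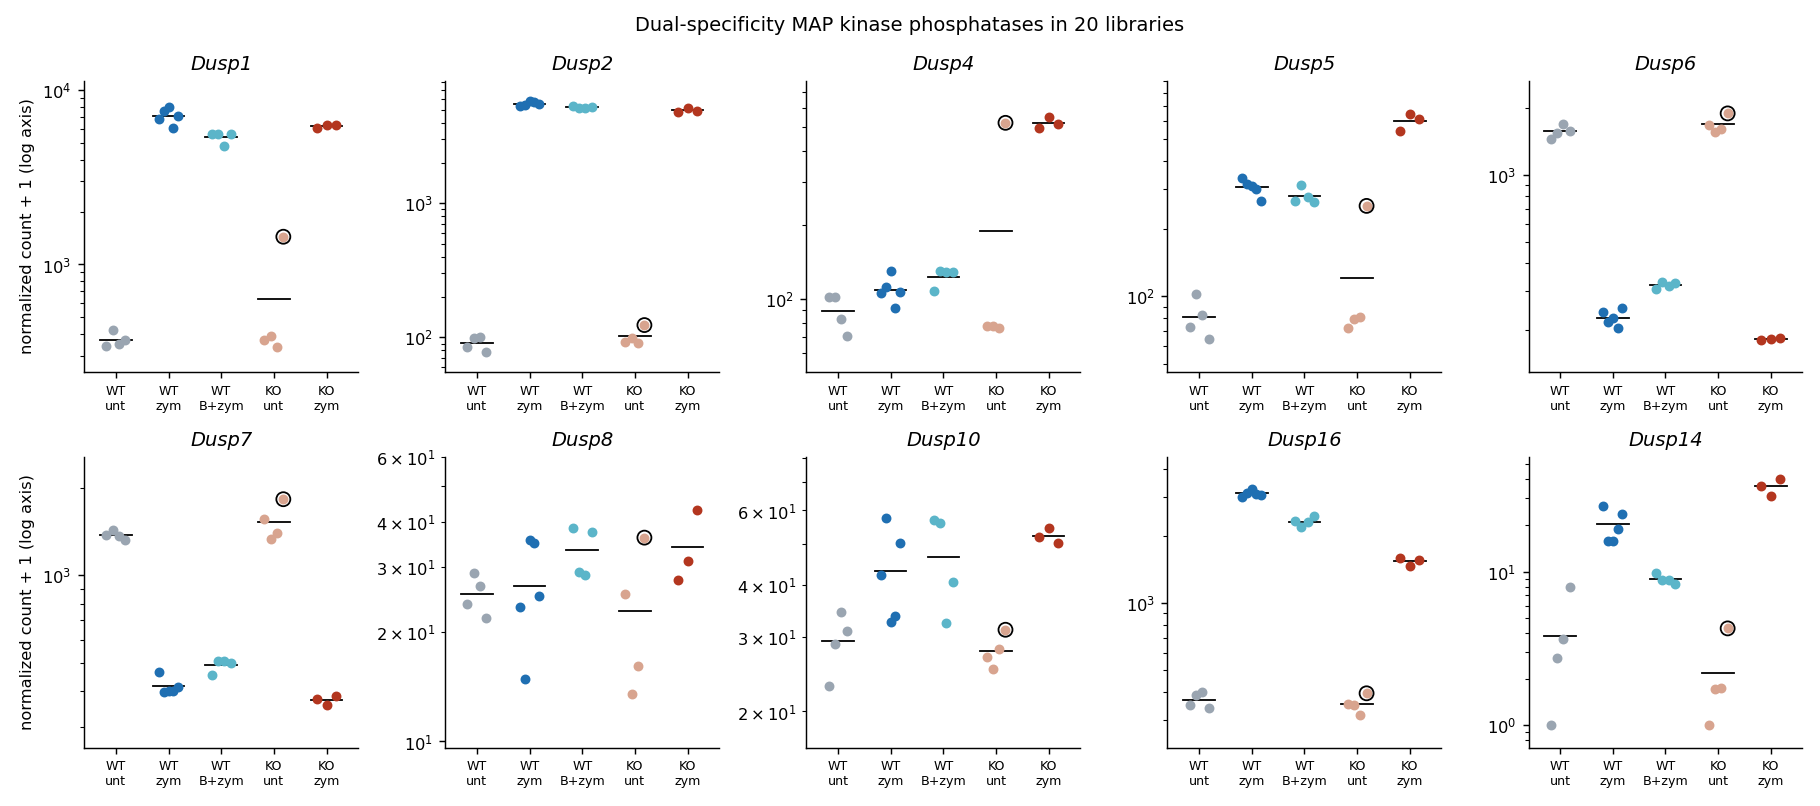
Each point is 1 library and each panel 1 member, on a log axis of the normalized count plus 1, with black lines at the group means. From left the groups are WT untreated, WT zymosan, WT BAPTA-AM plus zymosan (B+zym), Mcu-/- untreated and Mcu-/- zymosan (KO), and the circled point is untreated Mcu-/- replicate 4. Dusp1, Dusp2 and Dusp16 are high and Dusp6 and Dusp7 low in all 3 zymosan groups, and Dusp4 is high in Mcu-/- zymosan and in the circled library.

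BAPTA-AM loading, which lowers free cytosolic Ca2+, was compared with unloaded WT macrophages that also received zymosan. Of 10 members 4 were called (12.8% of genes), 2 higher (6.43%) and 2 lower (6.33%), and 4 did not overlap between the groups (24.3% of genes). Without untreated Mcu-/- replicate 4, 6 were called (31.8% of genes), 2 higher (15.3%) and 4 lower (16.5%). The members' median log2 change was 0.01, against 0.00 over all genes.

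Dusp6 was higher with BAPTA-AM, at 303, 327, 314 and 323 normalized counts against 202 to 249 in the 5 unloaded libraries given above. No library overlapped, and the log2 change was 0.49 ± 0.07 (SE, adjusted p = 9.43e-05 by edgeR). Dusp16 was lower, at 2327, 2190.3, 2303 and 2462, below each of its 5 unloaded libraries, with a log2 change of -0.42 ± 0.06 (SE, adjusted p = 5.92e-05 by edgeR). Both calls held in each of 20 fits that left out 1 library. Dusp7, at 453, 505, 506 and 500.3, was called higher with a log2 change of 0.24 ± 0.08 (SE, adjusted p = 0.0459 by edgeR), and its lowest BAPTA-AM library lay within the unloaded range. The call was kept in 5 of the 20 fits without 1 library, those without WT zymosan replicate 1, BAPTA-AM replicate 1 or untreated Mcu-/- replicate 2, 3 or 4, and over the 20 fits its adjusted p ran from 0.00145 to 0.113 (edgeR). Dusp14, at 8.80, 7.87, 7.86 and 7.30, was called lower with a log2 change of -1.26 ± 0.41 (SE, adjusted p = 0.0487 by edgeR) and no overlap, on 28 counts in 4 against 86 in 5 libraries (ratio 0.416, 95% exact counting interval 0.262 to 0.644). Its call was kept in 4 of the 20 fits, those without WT untreated replicate 1 or 4 or untreated Mcu-/- replicate 1 or 4, with adjusted p from 0.0047 to 0.115 (edgeR).

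Dusp1 had 5641, 5623, 4759.7 and 5571 normalized counts with BAPTA-AM, each below the lowest unloaded library of 6046. The fit of all 20 libraries did not call it, at -0.40 ± 0.29 (SE, adjusted p = 0.453 by edgeR), and the fit without untreated Mcu-/- replicate 4 called it lower, at -0.40 ± 0.05 (SE, adjusted p = 6.93e-08 by edgeR). Dusp2 had 5322, 5104, 5138 and 5229, within or just below the unloaded range, at -0.09 ± 0.07 (SE, adjusted p = 0.445 by edgeR), and -0.09 ± 0.03 (SE, adjusted p = 0.0249 by edgeR) without that library. The other inducible members were not called in either fit. Dusp4 had 107, 128, 127 and 127 (0.18 ± 0.47, SE, adjusted p = 0.882 by edgeR) and Dusp5 263, 312, 276 and 263 (-0.12 ± 0.26, SE, adjusted p = 0.844 by edgeR). Neither group of 4 stood clear of the unloaded libraries. Dusp8, at 37.4, 28.1, 27.5 and 36.5, and Dusp10, at 56.1, 55.1, 31.4 and 39.6, had log2 changes of 0.33 ± 0.29 (SE, adjusted p = 0.54 by edgeR) and 0.12 ± 0.19 (SE, adjusted p = 0.795 by edgeR).

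Against untreated WT, the BAPTA-AM loaded macrophages with zymosan had 8 members called (66.0% of genes), 6 higher (31.9%) and 2 lower (34.2%), and 8 that did not overlap (69.6%). The log2 changes were 5.85 for Dusp2, 3.87 for Dusp1, 2.66 for Dusp16, 1.79 for Dusp5, 1.57 for Dusp14 and 0.69 for Dusp10, and -2.31 for Dusp6 and -1.49 for Dusp7. These are the genes called with zymosan alone and their signs were those found there, in a comparison that shares the untreated WT libraries. Dusp14 lost its call without WT untreated replicate 1 (1.14, edgeR adjusted p = 0.0593) or replicate 2 (1.41, edgeR adjusted p = 0.058), and with library totals in place of TMM both Dusp14 (1.15, edgeR adjusted p = 0.0728) and Dusp10 (0.26, edgeR adjusted p = 0.258) lost theirs. Dusp4, at 0.46 ± 0.50 (SE, adjusted p = 0.432 by edgeR), was called without untreated Mcu-/- replicate 4 (0.45 ± 0.12, SE, adjusted p = 8.23e-04 by edgeR), and Dusp8 had 0.41 ± 0.30 (SE, adjusted p = 0.24 by edgeR).

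With zymosan in both genotypes, Dusp4 and Dusp5 were higher and Dusp16 and Dusp6 lower in Mcu-/- than in WT macrophages. Of 10 members 5 were called (62.2% of genes), 3 higher (31.8%) and 2 lower (30.3%), and 7 did not overlap (64.0% of genes). Both shares of the members lay near those of all genes. Their median log2 change was 0.06, against 0.02 over all genes. This comparison and that of BAPTA-AM share the 5 WT zymosan libraries.

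Dusp4 had 495, 551 and 516 normalized counts in the 3 Mcu-/- zymosan libraries, against at most 129 in any WT library. The difference was 4.81-fold, a log2 change of 2.27 ± 0.46 (SE, adjusted p = 3.91e-04 by edgeR). Dusp5 had 541, 644 and 610.0 and no overlap with WT, 1.97-fold higher, at 0.98 ± 0.27 (SE, adjusted p = 0.00421 by edgeR). Both calls held in each of the 20 fits without 1 library. Dusp14 was also higher, at 35.2, 30.3 and 39.0, without overlap, at 0.86 ± 0.35 (SE, adjusted p = 0.0426 by edgeR). The Dusp14 call was kept in 9 of the 20 fits without 1 library, with adjusted p from 0.00555 without untreated Mcu-/- replicate 4 to 0.138 (edgeR), and was lost in 11 that left out WT untreated replicate 3, WT zymosan replicate 2, 3 or 4, any of the 4 BAPTA-AM replicates or any of the 3 Mcu-/- zymosan libraries. It was also lost with library totals (0.81, edgeR adjusted p = 0.0544) and with no filter on low counts (0.85, edgeR adjusted p = 0.0736).

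Dusp16 had 1593, 1470.1 and 1556 normalized counts, 2.01-fold lower than in WT, at -1.01 ± 0.06 (SE, adjusted p = 6.65e-10 by edgeR). All 3 libraries were below those of BAPTA-AM loaded WT macrophages, which were below those of unloaded ones. Dusp6 had 179.6, 182 and 184, below every WT library, at -0.32 ± 0.08 (SE, adjusted p = 0.00214 by edgeR). Here the 2 conditions stood on opposite sides of WT zymosan, since Dusp6 was higher with BAPTA-AM. Dusp7, at 375, 356 and 384, lay below WT in each library and was not called (-0.16 ± 0.09, SE, adjusted p = 0.12 by edgeR). The same held for Dusp2, at 4791, 5157 and 4866 (-0.17 ± 0.07, SE, adjusted p = 0.0549 by edgeR). Dusp1, at 6063, 6288 and 6290.0, overlapped WT and was not called (-0.20 ± 0.32, SE, adjusted p = 0.608 by edgeR). With library totals Dusp7 was called (-0.21, edgeR adjusted p = 0.0198). Without untreated Mcu-/- replicate 4 Dusp7, Dusp2 and Dusp1 were called lower, with edgeR adjusted p of 0.0436, 7.58e-05 and 0.00201, which made 8 called (70.1% of genes), 5 lower (33.7%) and 3 higher (36.4%). Dusp2 was also called lower by DESeq2 (-0.16, DESeq2 adjusted p = 0.00101), with library totals (-0.22, edgeR adjusted p = 0.00709) and without WT untreated replicate 4 or untreated Mcu-/- replicate 3 (edgeR adjusted p = 0.0434 and 0.0478). Dusp8, at 26.7, 30.3 and 42.0, and Dusp10, at 51.0, 53.6 and 49.2, overlapped WT, with 0.36 ± 0.31 (SE, adjusted p = 0.318 by edgeR) and 0.28 ± 0.21 (SE, adjusted p = 0.254 by edgeR).

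Marker levels differed along with these results. The summed level of 5 fibroblast and stromal markers was 44.0 to 52.3 CPM in the Mcu-/- zymosan libraries and 2.67 to 6.63 in the 13 WT libraries. In untreated Mcu-/- libraries it ran from 1.10 to 28.3 with a median of 2.42, and the highest was replicate 4. All 5 had counts in the Mcu-/- zymosan group. The 5 B cell markers summed to 13.0 to 13.6 CPM in Mcu-/- zymosan, 30.8 to 37.4 in WT zymosan and 53.6 to 55.8 in WT untreated. In untreated Mcu-/- libraries their sum was 18.8 in replicate 4, with a group median of 54.4 and a maximum of 55.4. The summed macrophage markers were lower in Mcu-/- zymosan, as given above. Taken singly, 4 of the 8 macrophage markers were called higher than in WT zymosan (Cd68, 1.91, Fcgr1, 1.44, Csf1r, 0.94, and Cd14, 0.34, on the log2 scale) and 3 lower (Itgam, -1.66, Lyz2, -1.34, and Adgre1, -0.79). Itgam had a second entry in the table, which was not called. The 7 neutrophil markers summed to 0.452 to 0.589 CPM in Mcu-/- and 3.39 to 5.41 in WT zymosan libraries. All 3 that were tested were called lower (median log2 change -3.40). Without zymosan, this sum ran from 0.159 in Mcu-/- replicate 4 to 2.77 in untreated Mcu-/- libraries, and the T cell sum from 1.10 to 3.53. The T cell markers summed to 3.16 to 3.65 CPM in Mcu-/- and 0.918 to 1.82 in WT zymosan libraries, and the 1 tested, Cd4, was called higher (1.58), while 3 of the 5 in the table were at 0 in each group. The part of these in the differences of Dusp4, Dusp5, Dusp6, Dusp14 and Dusp16 was not tested.

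Without zymosan, no member was called between Mcu-/- and WT macrophages by edgeR (0.350% of genes were), and no member's groups stood apart (7.09% of genes did). At an unadjusted edgeR p under 0.05 there were 2, Dusp1 and Dusp4. DESeq2, which gave no adjusted p for Dusp4, called 0 at its adjusted p and had 2 at its unadjusted p. No share of all genes was counted at an unadjusted p, so these 2 cannot be set against the 0.350%. Dusp1 had 367, 388, 337 and 1442 normalized counts in replicates 1 to 4, Dusp4 76.2, 76.2, 75.3 and 521, and Dusp5 71.6, 78.4, 79.8 and 251. In each the first 3 libraries lay within or just below the untreated WT range and replicate 4 lay above all 4 WT libraries by a wide margin. Replicate 4's Dusp4 value fell inside the range of the Mcu-/- zymosan libraries (495 to 551), and its Dusp1 and Dusp5 values between the untreated and zymosan ranges. Dusp2 had 91.4, 98.2, 90.3 and 123, Dusp6 1689, 1564, 1611 and 1897, Dusp7 1556, 1332, 1403 and 1827 and Dusp8 24.4, 12.5, 15.1 and 35.2. For these too replicate 4 was the highest of the 4, above the WT range, which made 7 of 10 members above it in that library. The share of all genes above the WT range there was not counted, and that library stood apart over all genes. For Dusp7 replicate 1 was above the WT range as well. Dusp16 had 351, 349, 314 and 393, Dusp10 25.9, 24.2, 27.1 and 30.3 and Dusp14 0, 0.733, 0.753 and 3.27, and here replicate 4 was within the untreated WT range.

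The log2 changes of the untreated comparison were 0.78 ± 0.33 (SE, adjusted p = 0.294 by edgeR) for Dusp1, 1.07 ± 0.48 (SE, adjusted p = 0.311 by edgeR) for Dusp4 and 0.57 ± 0.30 (SE, adjusted p = 0.365 by edgeR) for Dusp5. Without replicate 4 all 3 turned in sign, to -0.02, -0.23 and -0.07, and again no member was called (3.35% of genes were). The other 7 members ran from -1.10 (Dusp14) to 0.16 (Dusp2) with all 4 libraries, and those of Dusp8 and Dusp10, at -0.17 and -0.08, turned to 0.02 without untreated Mcu-/- replicate 2 and without WT untreated replicate 3.

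**Figure D3:**
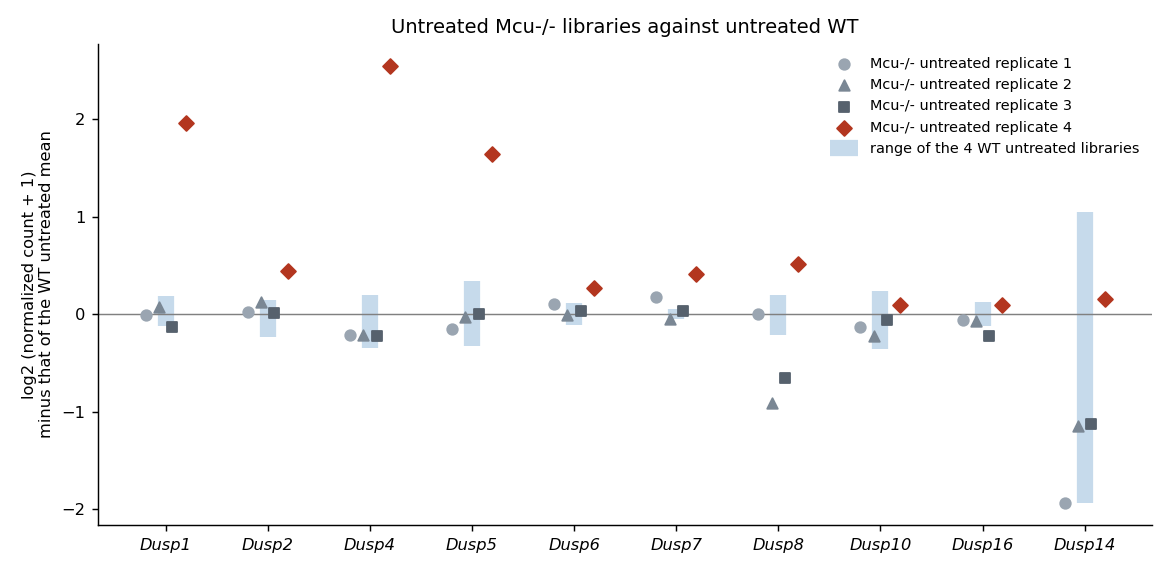
Points give, for each member, the log2 of the normalized count plus 1 in each untreated Mcu-/- library minus that of the untreated WT mean, and bars the range of the 4 untreated WT libraries. Replicate 4 (diamonds) is above the bar for 7 members, by the most for Dusp4, Dusp1 and Dusp5, while replicates 1 to 3 lie in or near it. That library stood apart over all genes, and the share of all genes above the WT range was not counted.

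In Mcu-/- macrophages zymosan gave calls for the 8 members called in WT with all 20 libraries, and for Dusp4, whose difference between the 2 responses was not called in that fit. There 9 members were called (73.8% of genes), 7 higher (34.3%) and 2 lower (39.4%), and 8 did not overlap (61.6%). The log2 changes were 5.62 for Dusp2, 3.30 for Dusp1, 2.32 for Dusp5, 2.13 for Dusp16, 1.48 for Dusp4, 0.93 for Dusp10, -3.22 for Dusp6 and -2.04 for Dusp7. Dusp4 was 2.80-fold higher with zymosan when untreated replicate 4 was kept and 6.85-fold higher without it (2.78 ± 0.11, SE, adjusted p = 4.24e-24 by edgeR). In a fit of these 2 groups alone, with replicate 4 kept, it was not called (1.52, edgeR adjusted p = 0.108). Untreated replicate 4 had 521 normalized counts of Dusp4, inside the 495 to 551 of the zymosan libraries, and its marker levels stood apart as well. Whether zymosan or what set these libraries apart gave the difference was not tested. Dusp10 lost its call with library totals (0.41, edgeR adjusted p = 0.0894). Without untreated replicate 4, Dusp1 and Dusp5 had 4.09 and 2.97. Dusp8, at 0.62 ± 0.32 (SE, adjusted p = 0.089 by edgeR), was then called (0.95 ± 0.29, SE, adjusted p = 0.00326 by edgeR). All 10 members were called in that fit (81.5% of genes, a share in either direction), 8 of them higher. Dusp14 had 93 counts in the 3 zymosan libraries and 6 in the 4 untreated ones, a ratio of 30.5 (95% exact counting interval 13.5 to 85.2), or 70.1 (18.9 to 587) against the 2 counts of replicates 1 to 3.

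The difference between the 2 zymosan responses was tested as an interaction. With all 20 libraries, 4 of 10 members were called (35.2% of genes). All 4 had a lower log2 change in Mcu-/- and none a higher one by edgeR. Of the 11707 genes, 2343 were called lower and 1779 higher. DESeq2 called 1 member higher, Dusp14. At an unadjusted edgeR p under 0.05 there were 6 members in either direction, a count for which no share of all genes is given. Of the 4, Dusp16 had the largest difference, -0.94 ± 0.09 (SE, adjusted p = 4.55e-07 by edgeR), so that its rise was 8.42-fold in WT and 4.38-fold in Mcu-/- macrophages. Dusp6 had -0.42 ± 0.10 (SE, adjusted p = 0.00421 by edgeR), a deeper fall in Mcu-/-. Both were called in each of the 20 fits without 1 library. Dusp2, at -0.32 ± 0.12 (SE, adjusted p = 0.0405 by edgeR), was called in 11 of those fits and lost in 9 (edgeR adjusted p 0.0275 to 0.0937), without WT untreated replicate 1 or 4, WT zymosan replicate 3, 4 or 5, untreated Mcu-/- replicate 2 or 4, or Mcu-/- zymosan replicate 3 or 5. Dusp7, at -0.31 ± 0.11 (SE, adjusted p = 0.0427 by edgeR), was called in 10 and lost in 10 (edgeR adjusted p 0.0151 to 0.103), without WT untreated replicate 1, 3 or 4, WT zymosan replicate 1 or 5, BAPTA-AM replicate 4, untreated Mcu-/- replicate 1 or any Mcu-/- zymosan library. By DESeq2 Dusp7 was not called (-0.30, DESeq2 adjusted p = 0.0537), so that 3 were lower. Without untreated Mcu-/- replicate 4, Dusp2 was not called (-0.21 ± 0.11, SE, adjusted p = 0.0937 by edgeR), while Dusp7 was (-0.21 ± 0.08, SE, adjusted p = 0.0307 by edgeR).

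Leaving out that library brought 4 members past the threshold in the other direction. Then 7 were called (60.3% of genes, a share in either direction), 4 higher and 3 lower. Dusp4 moved from 1.20 ± 0.67 (SE, adjusted p = 0.17 by edgeR) to 2.50 ± 0.16 (SE, adjusted p = 2.10e-16 by edgeR), and Dusp5 from 0.41 ± 0.41 (SE, adjusted p = 0.46 by edgeR) to 1.06 ± 0.16 (SE, adjusted p = 3.60e-07 by edgeR). Replicate 4 had 521 normalized counts of Dusp4, inside the Mcu-/- zymosan range of 495 to 551. For the nuclear phosphatases Dusp4 and Dusp5 the difference with zymosan was called larger in Mcu-/- only in the fits without replicate 4. Dusp8 and Dusp14 were called as well (edgeR adjusted p = 0.0452 and 0.00814), both on low counts, and the fitted value of Dusp14, whose untreated Mcu-/- libraries then held 0, 1 and 1 count, depends on the prior count. Dusp14 was also called without WT untreated replicate 1 (2.38, edgeR adjusted p = 0.0206). Dusp1 had -0.97 ± 0.46 (SE, adjusted p = 0.108 by edgeR) with all libraries and -0.18 ± 0.11 (SE, adjusted p = 0.163 by edgeR) without replicate 4, and was called lower without untreated Mcu-/- replicate 3 (-1.18, edgeR adjusted p = 0.0485). Dusp10 had 0.36 ± 0.30 (SE, adjusted p = 0.366 by edgeR).

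**Figure D4:**
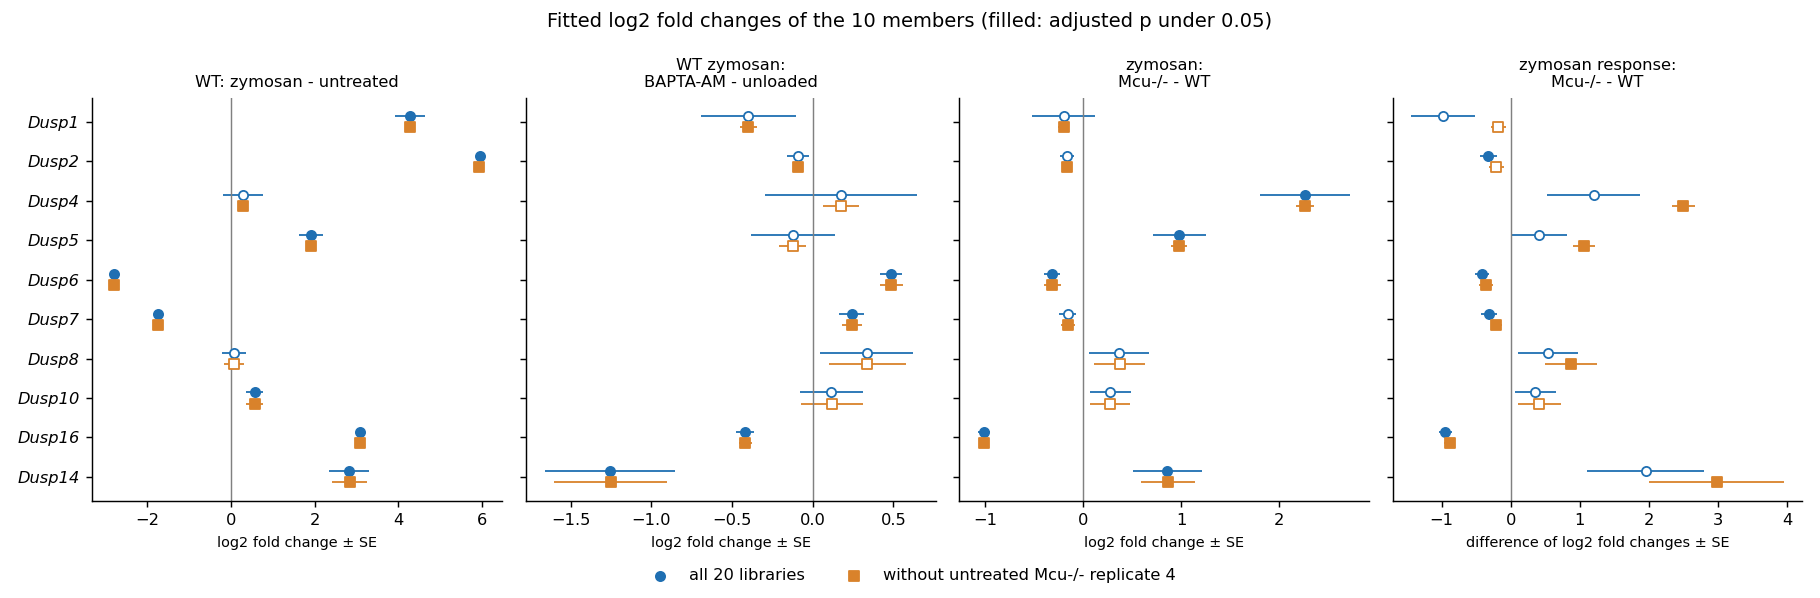
Points are the fitted log2 changes of the 10 members with bars of 1 SE, filled where edgeR's adjusted p was under 0.05, from all 20 libraries (circles) and without untreated Mcu-/- replicate 4 (squares). In the first 3 panels the 2 fits differ in SE and hardly in value, and in the panel of the difference between zymosan responses Dusp1, Dusp4, Dusp5 and Dusp14 move.

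Over the 5 groups, the order of levels differed between members. Dusp16 was highest in WT zymosan, then BAPTA-AM loaded, then Mcu-/- zymosan, with no overlap between neighbours down to the untreated groups, which overlapped. Dusp6 was highest in the 2 untreated groups, which overlapped, then BAPTA-AM loaded, WT zymosan and Mcu-/- zymosan, each apart from the next. Dusp7 had that order too, with overlap between BAPTA-AM loaded and WT zymosan. Dusp14 ran from Mcu-/- zymosan over WT zymosan to BAPTA-AM loaded, each apart from the next and from untreated WT. The last gap was narrow, 7.30 against 6.94 normalized counts, and came from the scaling. BAPTA-AM replicate 3 and WT untreated replicate 4 both had 6 raw counts. For Dusp1 the order was WT zymosan, Mcu-/- zymosan, which overlapped it, and BAPTA-AM loaded, and for Dusp2 the 3 zymosan groups overlapped their neighbours. Dusp5 was highest in Mcu-/- zymosan, apart from WT zymosan and BAPTA-AM loaded, which overlapped, and Dusp4 was highest in Mcu-/- zymosan, overlapping untreated Mcu-/- only through replicate 4. Neighbouring groups overlapped throughout for Dusp8 and Dusp10.

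The genes most like each member, by Pearson's r of log2(CPM + 1) over the 20 libraries among 8348 or 8349 genes that averaged 10 CPM or more in some group, were as follows, as a description over libraries that share their groups. For Dusp1 it was Atf3, a stress-induced transcription factor (r = 0.999), for Dusp2 Zcchc2 (0.999), for Dusp4 Creg1 (0.990), for Dusp5 Tmbim6 (0.995) and for Dusp16 Atl3 (0.996). Dusp6 and Dusp7 were most like each other (0.996). Dusp14 was nearest to Ppp1r12a (0.971), Dusp10 to Bzw2 (0.880) and Dusp8 to Rbm19 (0.735). Among the members, Dusp1 and Dusp2 were nearest to each other (0.980), and Dusp6 was least like Dusp2 (-0.981).

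Calls among the kinases on which these phosphatases act, and among other regulators, are read against the 32.4% of all genes called higher and 36.8% called lower with zymosan in WT, in counts that rest on TMM scaling, since library totals shifted the median of all genes by -0.49. Of 10 MAP kinases tested, 3 were higher and 4 lower (median log2 change 0.03), shares near those of all genes. Mapk6, an atypical MAP kinase, rose from 2644 to 9298 normalized counts in the mean (log2 change 1.81, edgeR adjusted p = 1.94e-12), and Mapk14, which encodes p38 alpha, fell from 2914 to 2227 (-0.39, edgeR adjusted p = 2.12e-05). Of 7 MAP2 kinases 4 were higher and 1 lower, with Map2k4, a JNK and p38 activator, at 1.73. Of 20 MAP3 kinases and TAB adaptors 7 were higher and 10 lower, and of 10 MAPK-activated kinases 4 were higher and 3 lower, with Mapkapk2, the p38 target kinase, at 2.31. The 14 ERK immediate early and target genes had 10 higher and 4 lower (median 2.04), among them Egr3 (3.44), Atf3 (2.86) and Ier3 (2.75). Of 9 other dual-specificity phosphatases 4 were higher and 1 lower, of 4 Sprouty and SPRED inhibitors of ERK signaling 1 was higher (Spred1, 1.96) and 3 lower, and of 7 other phosphatases that act on MAP kinases 4 were higher and 2 lower, with Ptpn7 at -2.18.

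With BAPTA-AM, where 6.43% of all genes were called higher and 6.33% lower, 2 of the 10 MAP kinases were higher (Nlk, 0.55, and Mapk8, which encodes JNK1, 0.38) and 1 of 7 MAP2 kinases was lower (Map2k4, -0.23). Of the 14 ERK target genes 1 was higher and 3 lower. Without untreated Mcu-/- replicate 4 the counts were 1 and 8, where 15.3% of all genes were called higher and 16.5% lower. In Mcu-/- against WT macrophages with zymosan, where 62.2% of all genes were called, all 10 MAP kinases were called, 5 higher and 5 lower, among them Mapk14 (0.74), Mapk11, which encodes p38 beta (-1.05), and Mapk6 (-0.40). Of 7 MAP2 kinases 2 were higher and 3 lower, with the ERK activator Map2k1 at 0.74 and the p38 activator Map2k6 at -2.04. The 20 MAP3 kinases and adaptors had 11 higher and 4 lower (median 0.32), the 10 MAPK-activated kinases 5 and 2, the 4 Sprouty and SPRED genes 2 higher (Spry2, 1.06, and Spred1, 0.53), and the 14 ERK target genes 3 and 3 (median -0.02), with Phlda1 at 1.13 and Egr3 at -1.13.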

How the data were processed

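RNA was sequenced from 20 libraries of mouse bone marrow-derived macrophages in 5 groups. The authors' processing used FastQC, MultiQC, cutadapt, STAR on mm10, HTSeq and DESeq2, whose versions were not given in the sources used here. The deposited table held raw read counts per gene symbol for each library, and no column was left without a sample or group. The 3 Mcu-/- zymosan columns are numbered 3 to 5, unlike the sample titles, and were used as replicates of their group without pairing.

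Counts were fitted with edgeR 4.0.16 (R 4.3.3, TMM, filterByExpr, quasi-likelihood test, 1 coefficient per group, all 20 libraries together), and p-values were adjusted over all 11707 genes tested by Benjamini-Hochberg. All groups share 1 estimate of spread. Depth was 14.4 to 24.0 M counts, so that 1 CPM was 15.7 to 28.1 counts. Levels between genes were compared as CPM per kb of union exon length (GENCODE M21). DESeq2 1.42.0, other scalings and filters, a log2 fold change minimum of 1, a replicate block and fits without each library were the alternatives. The fitting scripts were tested on simulated data. The members and the gene lists were chosen with earlier results of these data known. Within the lists, the genes named were up to 3 called genes with the largest change that averaged 10 CPM or more in the group where they were higher, and any MAP kinase or MAP2 kinase. Fold changes of the authors' own comparisons were not used.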

Additional observations from a re-analysis of the deposited data

Results flagged for a closer look

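Dusp4, Dusp1 and Dusp5 each had 1 untreated Mcu-/- library far from the other 3, replicate 4, at 521, 1442 and 251 normalized counts. Dusp4 in replicate 1 of the BAPTA-AM group (107) and Dusp1 in its replicate 3 (4759.7) lay below the rest of that group. Dusp7 in replicate 1 was below the rest with BAPTA-AM (453) and above the rest in WT zymosan (465). These 7 values came from 40 groups of values tested by Dixon's criterion, which by chance marks about 1 in 20 groups, and 3 of the 7 were in the single library that stood apart over all genes.

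With all 20 libraries, the zymosan response of Mcu-/- macrophages differed from that of WT by the interaction test for Dusp16 (-0.94 on the log2 scale), Dusp6 (-0.42), Dusp2 (-0.32) and Dusp7 (-0.31). In Mcu-/- the rise of Dusp16 and Dusp2 was smaller and the fall of Dusp6 and Dusp7 deeper. Without untreated Mcu-/- replicate 4 the values were -0.88, -0.36, -0.21 and -0.21, with edgeR adjusted p of 1.42e-12, 0.00172, 0.0937 and 0.0307. In that fit Dusp4 (2.50), Dusp5 (1.06), Dusp8 (0.88) and Dusp14 (2.98) were called higher. The calls of Dusp2 and Dusp7 were lost in 9 and 10 of the 20 fits without 1 library.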

How the results depend on the processing

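Over the members, 1783 values under other settings kept their direction and their side of the threshold, 86 lost a call, 31 gained one and 13 changed sign. Each value that changed sign was called neither with all 20 libraries nor under the setting that turned it, and the cause was not tested. With library totals they were Dusp4 (-0.20) and Dusp8 (-0.41) for zymosan in WT and Dusp8 (-0.017) for zymosan with BAPTA-AM. For zymosan in WT, Dusp8 also turned without WT zymosan replicate 3 or 4, and over the fits without 1 library it ran from -0.058 to 0.24. Between untreated genotypes, Dusp1, Dusp4 and Dusp5 turned without untreated Mcu-/- replicate 4, Dusp8 without untreated Mcu-/- replicate 2 and Dusp10 without WT untreated replicate 3. Over those fits they ran from -0.019 to 0.99 (Dusp1), -0.23 to 1.33 (Dusp4), -0.074 to 0.75 (Dusp5), -0.50 to 0.020 (Dusp8) and -0.19 to 0.016 (Dusp10), and in a fit of the groups compared without untreated Mcu-/- replicate 4 Dusp1, Dusp4 and Dusp5 had -0.017, -0.23 and -0.071.

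With BAPTA-AM, the 2 members called higher became 1 by the DESeq2 test, with DESeq2 size factors, with no filter, in the 17 numbered libraries and with the replicate block in them, and 0 at a log2 fold change of at least 1, where edgeR had 4 members at an unadjusted p under 0.05 and DESeq2 5. The 2 called lower became 1 with no filter, with at least 10 counts in every library (which leaves Dusp14 untested), in the 17 libraries, with the block and at a log2 fold change of at least 1, and 4 in a fit of the groups compared. For Mcu-/- against WT with zymosan, the 3 higher became 1 at that minimum and 2 with library totals, with no filter, with at least 10 counts in every library and by DESeq2 (which gave Dusp4 no adjusted p), and the 2 lower became 3 by DESeq2, 4 with library totals, 5 in a fit of the groups compared and 1 at that minimum. For the difference of zymosan responses, higher calls were 1 by DESeq2 and 3 in the groups compared without untreated Mcu-/- replicate 4, and the 4 lower calls became 3 by DESeq2, 2 in the groups compared and 0 at that minimum, with 6 at an unadjusted p under 0.05. Leaving out 1 library gave 1 to 2 higher and 1 to 4 lower with BAPTA-AM, 2 to 3 and 2 to 5 between genotypes with zymosan, 0 to 4 and 2 to 5 for the difference of responses, 5 to 7 higher for zymosan in WT and for zymosan with BAPTA-AM, and 7 to 8 higher for zymosan in Mcu-/-. With the length of the longest transcript the family totals were 65.9, 365, 313 and 325 CPM per kb in WT untreated, WT zymosan, BAPTA-AM and Mcu-/- zymosan libraries. No share of all genes is given beside the counts under these other settings or at an unadjusted p, so they show only how the calls depend on the setting. The share of all genes moved too. Without untreated Mcu-/- replicate 4 it went from 12.8% to 31.8% with BAPTA-AM and from 35.2% to 60.3% for the difference of responses.

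Same-numbered libraries did not deviate together in the groups compared, which left out Mcu-/- zymosan. In 1 of 24 pairs their correlation was over 0.1 (-0.117 to 0.106), so the numbers were not taken as pairs. For pairs with untreated Mcu-/- libraries the check was weak, since deviations were taken from a group mean that included replicate 4. With the replicate block Dusp10 was not called for zymosan in WT (0.49, edgeR adjusted p = 0.0845), nor were Dusp7 and Dusp14 for BAPTA-AM (edgeR adjusted p = 0.154 and 0.177) or Dusp14 for zymosan with BAPTA-AM (edgeR adjusted p = 0.052). Library totals in place of TMM shifted the median log2 fold change of all genes by -0.49 for zymosan in WT, -0.43 with BAPTA-AM and -0.52 in Mcu-/-, and moved the share of higher calls from 46.8% to 18.6%, 48.3% to 19.9% and 46.5% to 19.0%. For BAPTA-AM against zymosan alone that share went from 50.4% to 74.9%. Dusp8, Dusp10 and Dusp14 are limited by depth, at under 60 normalized counts in any library. DESeq2 gave no adjusted p for Dusp4.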
